A study of Mus musculus with 5 samples.

Results

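Transforming growth factor beta (TGF-beta) was followed through 8 genes of its pathway: the ligand genes Tgfb1, Tgfb2 and Tgfb3, the receptor genes Tgfbr1 and Tgfbr2, the latency gene Ltbp1, the inhibitor gene Smad7 and the target gene Ctgf. They were taken by symbol from the 28692 genes of the droplet count matrices, where each of the 8 symbols stands once. The data came from kidneys of C57/BL6 mice aged 8 weeks, in a study of myeloid cells during and after reversible injury of 1 ureter. Unilateral ureteral obstruction (UUO) blocks the urine flow of 1 kidney and is a standard model of tubular injury and fibrosis.

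There were 4 droplet libraries of single cells, 1 for each condition: sham surgery at day 0, UUO at day 2, UUO at day 7, and reversed UUO, taken 7 days after the obstruction was released, on experimental day 14. Each library pooled 3 mice, so a time point has 1 library and no replicate. No comparison of time points could be tested, and a difference between 2 time points cannot be told apart from a difference between 2 libraries or 2 pools of mice. Another sample, made with Smart-seq2 in 768 wells on 8 plates, mixed all time points. All values below are unique molecular identifiers (UMIs), each standing for 1 captured RNA molecule, summed over the cells of a class in a library and given per 1000000 UMIs of those cells (CPM). Brackets hold exact 95% Poisson intervals of a level or exact 95% conditional binomial intervals of a ratio, and these cover counting error only.

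TGF-beta ligands are secreted in a latent form, bound to a propeptide and often to a latent TGF-beta binding protein such as the product of Ltbp1, and are released by integrins, proteases or thrombospondin. The freed ligand binds the type II receptor (Tgfbr2), which recruits and phosphorylates the type I receptor (Tgfbr1), and the pair then activates the signal carriers SMAD2 and SMAD3. Smad7 is induced by the pathway and blocks it at the receptor, and Ctgf, called Ccn2 in current annotation, encodes a matricellular protein that is a known target. In the kidney the pathway is best known for its part in fibroblast activation and matrix deposition.

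RefSeq start sites were matched for 5 of the 8 genes (Tgfb1, Tgfb2, Tgfbr1, Tgfbr2 and Ltbp1). The 250 bases before the first annotated start (GRCm38.p6) are shown for the ligand pair and the receptor pair, because the members of each pair ranked the classes differently, as given below. Capitals mark matches on either strand to 1 of 4 motifs that were searched: the GC box GGGCGG, the TATA box TATAAA, the AP-1 site TGANTCA and the cAMP response element TGACGTCA. A minus-strand GC box reads CCGCCC.
Tgfb1 (chr7:25686752-25687001, plus strand): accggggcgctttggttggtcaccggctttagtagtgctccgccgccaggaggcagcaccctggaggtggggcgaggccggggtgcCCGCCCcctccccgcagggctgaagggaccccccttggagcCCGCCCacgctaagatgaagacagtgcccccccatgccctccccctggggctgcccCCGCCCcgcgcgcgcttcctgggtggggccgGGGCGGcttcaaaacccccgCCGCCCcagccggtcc
Tgfb2 (chr1:186705990-186706239, minus strand): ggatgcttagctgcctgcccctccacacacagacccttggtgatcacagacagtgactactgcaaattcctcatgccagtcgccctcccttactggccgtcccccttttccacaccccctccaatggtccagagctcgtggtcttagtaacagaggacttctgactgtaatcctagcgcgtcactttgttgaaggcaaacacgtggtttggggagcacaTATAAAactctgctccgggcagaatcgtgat
Tgfbr1 (chr4:47352972-47353221, plus strand): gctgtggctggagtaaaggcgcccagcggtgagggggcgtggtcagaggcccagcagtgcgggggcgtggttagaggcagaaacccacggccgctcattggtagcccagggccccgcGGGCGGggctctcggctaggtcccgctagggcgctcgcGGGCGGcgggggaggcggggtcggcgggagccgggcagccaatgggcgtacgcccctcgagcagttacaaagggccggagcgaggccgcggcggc
Tgfbr2 (chr9:116175364-116175613, minus strand): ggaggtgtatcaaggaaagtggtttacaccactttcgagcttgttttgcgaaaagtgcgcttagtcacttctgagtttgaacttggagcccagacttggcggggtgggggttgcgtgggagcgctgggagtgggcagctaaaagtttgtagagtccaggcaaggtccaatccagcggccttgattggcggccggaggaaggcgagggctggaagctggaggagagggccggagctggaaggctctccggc

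The Tgfb1 stretch held 5 GC boxes and was 75.2% G and C, and the Tgfb2 stretch held no GC box, 1 TATA box 31 to 26 bases before the start and 53.6% G and C. The Tgfbr1 stretch held 2 GC boxes at 74.8% G and C, and the Tgfbr2 stretch held none of the 4 motifs at 58.4%. Upstream of Ltbp1 stood 1 cAMP response element, 73 to 66 bases before the start. Among 32851 mouse promoters of the same length a GC box was found in 32.7%, a TATA box in 12.4%, an AP-1 site in 6.75% and a cAMP response element in 1.55%, and the median content of G and C was 52.4%. A match is a match of letters and was not tested as a binding site.

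The 8 genes are protein coding and lie on different chromosomes (GENCODE vM21 annotation, GRCm38). Tgfb1 is at chr7:25687002-25705077 on the plus strand, Tgfb2 at chr1:186622792-186705989 on the minus strand and Tgfb3 at chr12:86056745-86079041 on the minus strand. Tgfbr1 is at chr4:47353222-47414931 (plus) and Tgfbr2 at chr9:116084293-116175360 (minus). Ltbp1 is at chr17:75005568-75392512 (plus), Smad7 at chr18:75367529-75395935 (plus) and Ctgf at chr10:24595442-24598683 (plus). Libraries of this kind count the 3′ ends of transcripts, so the values below do not separate isoforms.

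The libraries differed in depth and quality in ways that touch every comparison. They held between 2739 and 5938 deposited cells and 18649637 to 30462683 UMIs, and 2159 to 4287 cells were kept. Median mitochondrial content per deposited cell was 40.6% in sham, 16.2% at day 2, 3.00% at day 7 and 14.0% after reversal, and the median depth was 2480.5 UMIs per cell in sham against 4709 to 5668 in the others. Cells were given a class by a gate on marker genes, for 17 classes named here by the cells they resemble, and 91.5% to 97.4% of kept cells had a class. Between 120 and 559 cells per library lay within 0.05 of the gate's limit. Barcodes shared between 2 libraries numbered 16 to 39. Class levels are given for classes of at least 30 cells, which left sham without a fibroblast-like, injured tubule-like or lymphocyte value. In every class with at least 30 cells in a library, all its markers were detected.

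Tgfb1, the most widely expressed of the ligand genes, was high in leukocytes, endothelium and fibroblasts and low in tubule wherever these classes had a level. Endothelium-like cells held 233 CPM [193, 278] in sham, 254 [217, 297] at day 2, 237 [216, 261] at day 7 and 250 [226, 276] after reversal. Macrophage-like cells held 256 [169, 373], 290 [274, 308], 208 [200, 215] and 236 [220, 253] CPM in the same order. Endothelium and macrophages thus lay side by side in sham, with overlapping intervals, and neither differed by 2-fold between any 2 libraries.

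Monocyte-like cells had the highest Tgfb1 levels of all classes at the 3 times they could be measured, at 450 CPM [408, 496] at day 2, 353 [314, 395] at day 7 and 558 [468, 661] after reversal. T cell-like cells held 278, 198 and 166 CPM in those libraries. At day 7 natural killer cell-like cells stood at 225 CPM, neutrophil-like cells at 175 and dendritic cell-like cells at 122. Tgfb1 was therefore present in every leukocyte class with enough cells to measure, within a range of 122 to 558 CPM.

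In fibroblast-like cells Tgfb1 was 186 CPM [156, 220] in the 75 cells of day 7 (135 UMIs) and 466 [408, 530] after reversal (232 UMIs in 61 cells). The log2 ratio of reversal to day 7, taken on CPM plus 1 here and below, was 1.32 [1.01, 1.64], and after reversal only the monocyte-like cells were higher, with an interval that overlapped that of the fibroblasts. The share of fibroblast-like cells with a Tgfb1 UMI was 60.0% and 65.6%, at median depths of 8746 and 5588 UMIs, and after thinning every cell to 1000 UMIs it was 16% and 26.2%. The class was led by Col1a1, Col3a1 and Col1a2, and all its cells in both libraries lay in 1 cluster. At most 23 of the 232 UMIs came from 1 cell. Beside this, the summed level of 6 macrophage markers in these cells was 955 CPM at day 7 and 279 after reversal, and that of 8 proximal tubule markers 64.7 and 512 CPM, with none of either list at 0. Their part in the difference was not tested.

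The tubule held little Tgfb1. Proximal tubule-like cells, the reabsorbing first segment, had 2.90 CPM [1.93, 4.19] in sham, 10.4 [7.23, 14.6] at day 2, 26.8 [18.9, 36.9] at day 7 and 12.7 [10.1, 15.8] after reversal. Loop of Henle-like cells had 0 UMIs in the 174 cells of sham, where a floor of 3 UMIs is 4.58 CPM, and then 15, 23.5 and 12.3 CPM. Intercalated cell-like cells, the acid-base cells of the collecting duct, had 12.2, 34.2, 48.7 and 18.6 CPM. Day 7 was the highest library in each of these classes and sham the lowest. The proximal tubule values compare different clusters: in sham 58.0% of the cells lay in a cluster led by Spp2, Gpx3 and Car3, at day 2 71.3% in one led by Fgg, Fga and Fgb, at day 7 48.6% in one led by Slc13a1, and after reversal 58.1% in one led by Ttr, Spp2 and Cela1. Within the Slc13a1-led cluster Tgfb1 was 12.8, 42.9 and 10.1 CPM from day 2 to reversal.

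The macrophage genes C1qa, C1qb and C1qc, which tubule cells do not make, were also highest at day 7 and lowest in sham in each of these classes. Reversal lay above day 2 for them in all 3, as for Tgfb1 in proximal tubule-like cells but not in the other 2. Their summed level in proximal tubule-like cells was 15.9 CPM in sham, 128 at day 2, 922 at day 7 and 290 after reversal, which is 0.103%, 1.74%, 8.01% and 2.35% of their level in macrophage-like cells. Tgfb1 in proximal tubule-like cells was 1.13%, 3.60%, 12.9% and 5.37% of its own macrophage level. With an estimated profile of free RNA subtracted, the Tgfb1 level of proximal tubule-like cells came to 0.718, 0, 1.59 and 0 CPM, that of loop of Henle-like cells to 0, 1.89, 0 and 0, and that of intercalated cell-like cells to 9.96, 16.1, 24.8 and 3.14 CPM. With it subtracted, the call of day 2 over sham described below was lost in proximal tubule-like cells and in intercalated cell-like cells (a ratio of 0.64 in the latter), and in loop of Henle-like cells the 1.89 CPM left at day 2 lie under the floor of 4.58 CPM in sham, so no difference was detectable. The proximal tubule levels left from day 2 on lie under the floors of their libraries (0.921, 2.17 and 0.469 CPM), so no difference among them was detectable after the subtraction either. The part of free RNA in these levels was not tested otherwise.

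The classes differed in number between libraries, and so did the main holder of Tgfb1 UMIs. In sham, endothelium-like cells were 5.34% of kept cells and held 45.9% of the 259 Tgfb1 UMIs. At day 7, macrophage-like cells were 47.6% of cells and held 62.2% of 4740. After reversal, macrophage-like cells held 35.1% of 2186 UMIs, endothelium-like cells 17.8% and fibroblast-like cells, 1.94% of the cells, 10.6%. Digestion and sorting can change the share of each class, so these are shares of the recovered cells.

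**Figure D1:**
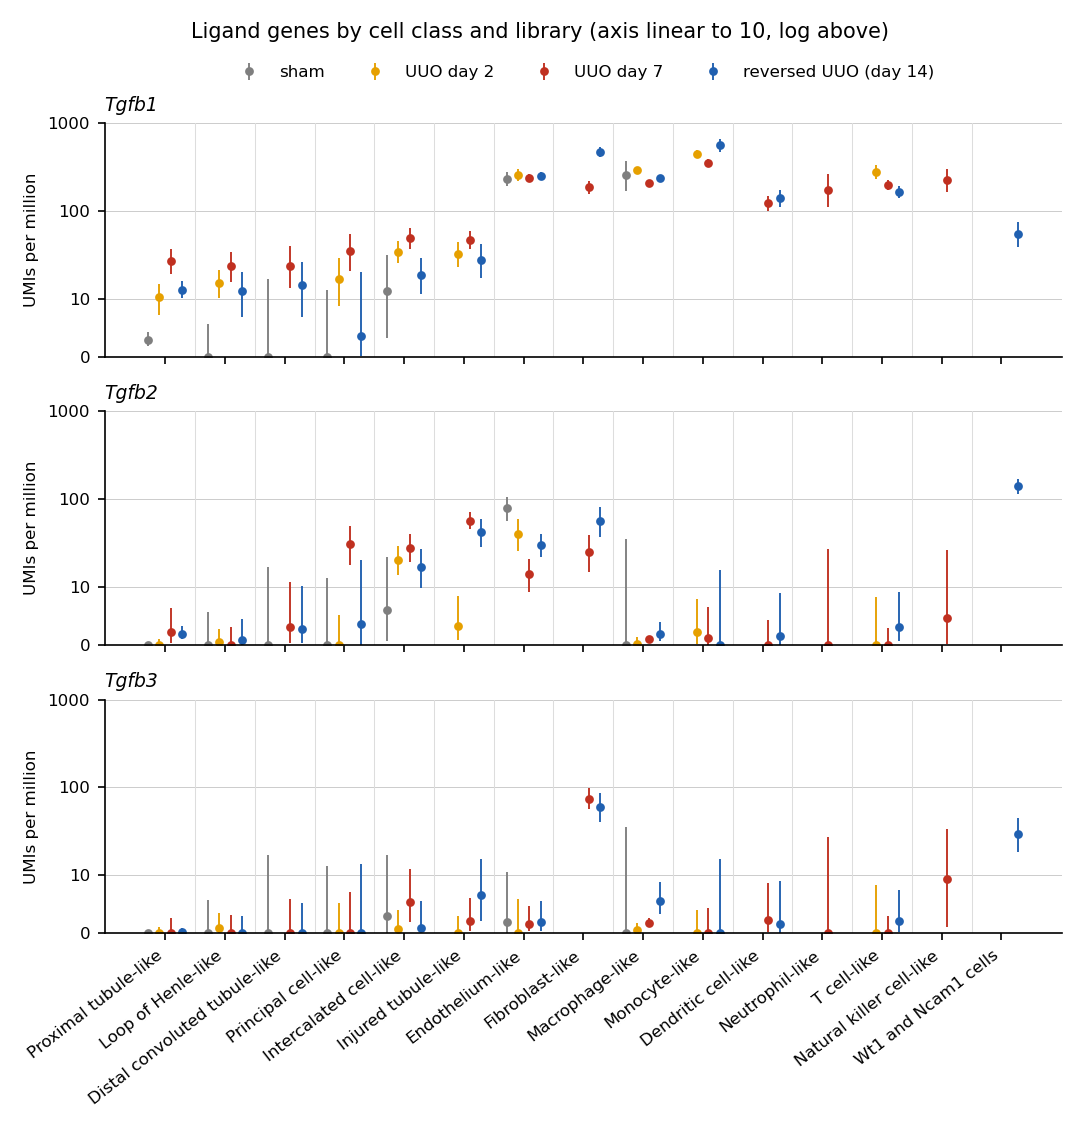
Levels of Tgfb1, Tgfb2 and Tgfb3 in CPM (vertical axis, linear up to 10 and logarithmic above) for classes with at least 30 cells (horizontal axis), with 1 point per library (sham grey, UUO day 2 amber, UUO day 7 red, reversed UUO blue) and exact 95% Poisson intervals as bars. Tgfb1 lies above 100 in endothelium-like, fibroblast-like and leukocyte classes and below 50 in tubule classes, while Tgfb2 and Tgfb3 are above 50 in few classes.

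Tgfb2, a ligand gene best known from development, had another set of cells: endothelium, injured tubule, fibroblasts and intercalated cells. To these came principal cells at day 7 and, after reversal, a small group of Wt1 and Ncam1 cells. In endothelium-like cells it was 78.2 CPM [55.8, 106] in sham, 39.8 [25.7, 58.7] at day 2, 14.0 [9.17, 20.6] at day 7 and 30.1 [22.1, 40.0] after reversal. Day 7 was lower than day 2 by a log2 ratio of -1.44 [-2.24, -0.62] and reversal was lower than sham by -1.35 [-1.97, -0.72], while reversal was higher than day 7 by 1.05 [0.36, 1.75]. With a stricter marker gate all 3 were short of 2-fold, the first at -0.10 and the second at -0.55. The third was also lost under 3 other alternatives, among them leaving out the cell with the most Tgfb2 UMIs, with a lowest value of 0.74. Leukocytes held little: the highest value of a leukocyte class was 4.68 CPM, in natural killer cell-like cells at day 7. The highest of the macrophage-like values was 1.85 CPM, after reversal.

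The endothelial Tgfb2 came largely from 1 cluster, led by Cldn5, Sox17 and Gja4, genes known from arterial endothelium. Endothelium-like cells were 69.6% of that cluster, and 24 of its 39 cells in sham. Over all its cells, of any class, Tgfb2 was 299.5 CPM in sham (40 UMIs in 39 cells), 107 at day 2, 44.7 at day 7 and 155 after reversal. In the cluster led by Ehd3 and Plat, genes of glomerular endothelium, it was 39.4, 3.86, 13.4 and 20.5 CPM. In the cluster led by Plvap, Rgcc and Igfbp3 it was 13.6, 13.9, 1.92 and 9.71 CPM. The Cldn5-led cluster was thus higher than the other 2 in every library, with no overlap of the intervals, and its day 7 interval lay below that of sham. The other 2 rest on 1 to 12 UMIs per library, and their intervals for sham and day 7 overlapped.

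That cluster's share of endothelium-like cells was 12.0% in sham, 37.0% at day 2, 12.2% at day 7 and 10.2% after reversal, so the class average at day 2 held more of the cells rich in Tgfb2. The Plvap-led cluster made up 34.5%, 28.3%, 57.2% and 56.1%.

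In injured tubule-like cells, gated on Havcr1, Krt20, Lcn2, Krt8 and Krt18, Tgfb2 was 3.30 CPM [0.899, 8.45] at day 2 (4 UMIs in 124 cells), 56.6 [45.0, 70.4] at day 7 (81 UMIs in 142 cells) and 41.7 [28.5, 58.9] after reversal. Day 7 was higher than day 2 by a log2 ratio of 3.75 [2.55, 4.97], the largest ratio called here for a member with UMIs in both libraries. At day 7 these cells were 3.31% of kept cells and held 37.9% of the library's Tgfb2 UMIs. The share of them with a Tgfb2 UMI was 2.42% at day 2 and 24.6% at day 7, at median depths of 8898 and 9410 UMIs, and 0% and 3.52% at 1000 UMIs per cell.

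The injury gate takes cells of several tubule segments, and Tgfb2 was not spread evenly over them. The cluster led by Aqp2, Hsd11b2 and Fxyd4, genes of the collecting duct principal cell, held 9.68% of the injured tubule-like cells at day 2 and 35.2% at day 7. Over all its cells, injured or not, Tgfb2 was 0 CPM in sham (0 UMIs in 68 cells), 1.23 at day 2 (1 UMI), 73.7 at day 7 (89 UMIs in 156 cells) and 31.7 after reversal (22 UMIs). In the cluster led by Il1f6, Umod and Lcn2, which held the largest share of the injured cells in each of these 3 libraries, Tgfb2 was 0.409, 2.45 and 5.87 CPM from day 2 to reversal. The UMIs of day 7 thus lay mainly in the cluster of collecting duct genes. Principal cell-like cells outside the injury gate held 30.6 CPM [17.5, 49.7] at day 7 (16 UMIs, 8 of them in 1 cell), against 0 UMIs in sham and at day 2. After reversal they held 3.59 CPM. Intercalated cell-like cells held 6.08, 20.4, 27.9 and 16.7 CPM in the 4 libraries.

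After reversal the highest Tgfb2 level of any class was in 58 cells without a class that had UMIs for both Wt1 and Ncam1 and were led by Tagln, Igfbp2 and Map1b. They held 141 CPM [115, 171], from 100 UMIs in 30 cells, with at most 13 in 1 cell. These cells were 1.85% of the reversed library and held 34.4% of its Tgfb2 UMIs. Podocytes, which also express Wt1, are not meant here: they had their own gate and numbered 2 in this library. The other 3 libraries held 2 to 7 such cells each, too few for a level.

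In fibroblast-like cells Tgfb2 stood at 24.8 CPM at day 7 and at 56.2 in the reversed library. The ratio, 1.15 [0.27, 2.05], rests on 18 and 28 UMIs and came to 0.93, short of 2-fold, with a pseudocount of 10 CPM.

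Tgfb3 was the rarest ligand gene and was found in stromal cells. Fibroblast-like cells had 74.4 CPM [55.9, 97.0] at day 7 and 60.2 [40.6, 86.0] after reversal, and the Wt1 and Ncam1 cells 29.6 [18.3, 45.2]. At day 7 fibroblast-like cells, 1.75% of the kept cells, held 53.5% of the Tgfb3 UMIs of the library. In sham 7 of the 11 Tgfb3 UMIs were in 12 mural-like cells, the contractile cells of vessel walls, which were too few for a level. The fibroblast intervals overlapped between the 2 libraries. Macrophage-like cells were at 0 UMIs in sham and then at 0.503, 1.83 and 5.54 CPM. Their ratio of reversal to day 7, 1.21 [0.48, 1.89], rests on 18 and 26 UMIs among 442 and 2042 cells, and with a pseudocount of 10 CPM it came to 0.39, short of 2-fold.

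Ltbp1, whose product holds latent TGF-beta in the matrix, was found in endothelium, in fibroblasts and in injured tubule, and was low in leukocytes, where each class was at 4.17 CPM or below. Endothelium-like cells had 89.9 CPM [65.8, 120] in sham, 25.4 [14.5, 41.3] at day 2, 23.2 [16.8, 31.3] at day 7 and 47.4 [37.2, 59.5] after reversal. Sham was the highest and its interval did not overlap the others. Day 2 was lower than sham by -1.78 [-2.66, -0.96]. The Plvap-led cluster, the highest of the 3 in sham, went from 184 CPM in sham to 48.5, 22.1 and 46.4, the Ehd3-led cluster had 49.2, 19.3, 31.9 and 57.3, and the Cldn5-led cluster 44.9, 31.3, 21.2 and 61.2.

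In fibroblast-like cells Ltbp1 went the other way from Tgfb1: it was 45.5 CPM [31.3, 63.8] at day 7 and 8.03 [2.19, 20.6] after reversal, from 33 and 4 UMIs, a log2 ratio of -2.36 [-3.96, -0.97]. Injured tubule-like cells held 4.95, 17.5 and 33.9 CPM from day 2 to reversal, and the ratio of day 7 to day 2 was 1.64 [0.46, 2.86], from 25 and 6 UMIs, a call lost with a pseudocount of 10 CPM and with the stricter gate (lowest value 0.88). The few mural-like cells held 34.7% of the Ltbp1 UMIs of the day 2 library.

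**Figure D2:**
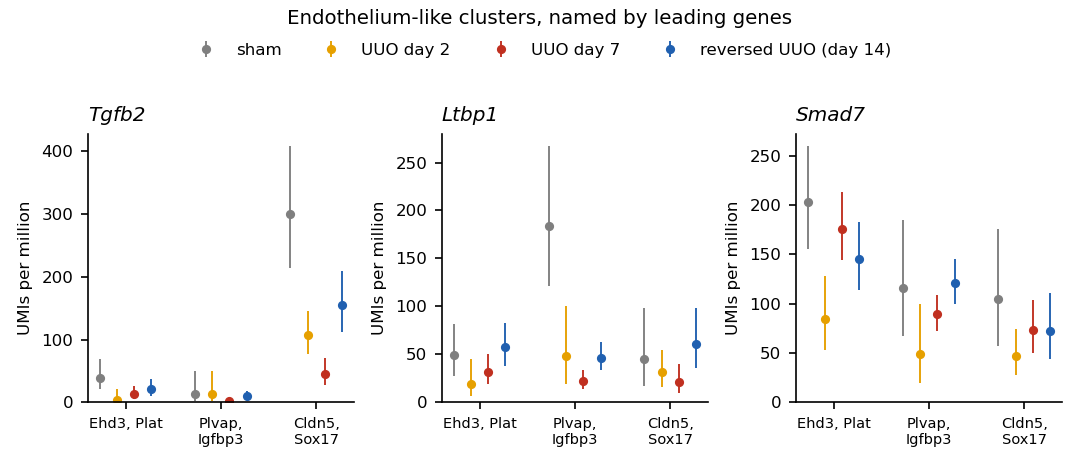
Levels of Tgfb2, Ltbp1 and Smad7 in CPM (vertical axes, each from 0) in all cells of 3 clusters whose main class was endothelium-like, named by leading genes (horizontal axes), with 1 point per library in the colours of the legend and exact 95% Poisson intervals as bars. Tgfb2 is highest in the cluster led by Cldn5 and Sox17 in all 4 libraries. Smad7 is lower at day 2 than in sham in all 3 clusters, with overlapping intervals in those led by Plvap and by Cldn5.

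The receptor genes divided the cells differently. Tgfbr1, encoding the type I receptor kinase, was high in macrophages, in distal convoluted tubule-like, principal cell-like and injured tubule-like cells, and low in endothelium. Macrophage-like cells held 408 CPM [295, 550] in sham (43 UMIs in 35 cells), 94.6 [85.3, 105] at day 2, 134 [128, 140] at day 7 and 189 [174, 205] after reversal. Principal cell-like cells held 98.7, 110, 187 and 89.7 CPM. Distal convoluted tubule-like cells held 50.1 CPM in sham, 154 at day 7 and 97.2 after reversal, but 78.2% of the sham cells and 62.9% of the reversed ones lay in a cluster led by Slc12a3 and Pvalb, and 71.9% of those at day 7 in one led by Il1f6, Umod and Lcn2. Injured tubule-like cells held 68.4, 118 and 76.9 CPM from day 2 on, and intercalated cell-like cells 27.4, 37.9, 48.7 and 23.5. Endothelium-like cells were between 19.5 and 32.4 CPM in all 4 libraries.

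The macrophage values separated the libraries without overlap of any interval. Day 2 was lower than sham by -2.10 [-2.55, -1.61], and reversal was lower than sham by -1.11 [-1.55, -0.63], or by -0.94 with TMM scaling, which is short of 2-fold. Different clusters made up the class at each time: a cluster led by Ccl8, Ms4a7 and C1qc held 88.6% of the sham cells, 53.9% of those at day 7 and 41.2% after reversal, while a cluster with Saa3 and Ccl24 among its leading genes held 78.2% of those at day 2. Within the Ccl8-led cluster Tgfbr1 was 441 CPM in sham (41 UMIs in 31 cells), 180 at day 7 and 229 after reversal. The Saa3 and Ccl24 cluster stood at 96.6 CPM at day 2 and 115 at day 7, and a cluster led by Retnla and Ear2 at 63.6 and 89.6 CPM at day 7 and after reversal. Tgfbr1 thus differed between clusters within a library as well as between libraries within a cluster. The summed level of Fos, Fosb, Jun, Junb, Egr1 and Atf3, genes that respond to tissue handling, was 1044 CPM in sham macrophage-like cells, 2049 at day 2, 2058 at day 7 and 4213 after reversal, and its part in the Tgfbr1 values was not tested.

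Tgfb1 did not follow these clusters: in the 4 macrophage-like clusters with at least 30 cells in a library it ranged from 187 to 286 CPM. Tgfbr2 did: it was 26.3 CPM in the Retnla-led cluster at day 7 against 121 in the Ccl8-led one.

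**Figure D3:**
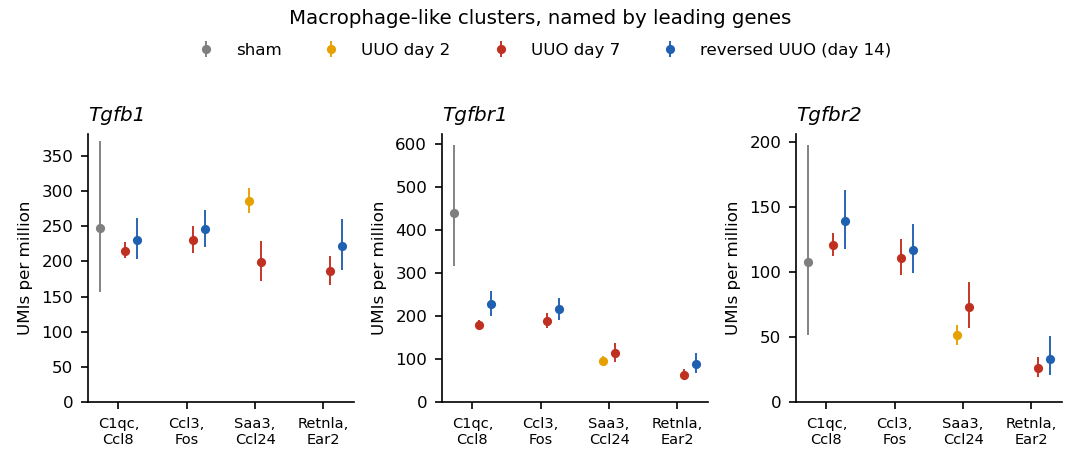
Levels of Tgfb1, Tgfbr1 and Tgfbr2 in CPM (vertical axes, each from 0) in 4 clusters of macrophage-like cells, named by leading genes (horizontal axes), for libraries with at least 30 cells of the cluster, with exact 95% Poisson intervals as bars and 1 colour per library. The sham point of Tgfbr1 in the cluster led by C1qc and Ccl8, at 441, rests on 41 UMIs, and Tgfbr1 and Tgfbr2 are lower in the cluster led by Retnla and Ear2 than in that led by C1qc and Ccl8 in both libraries with values for the pair.

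Tgfbr2, encoding the ligand-binding type II receptor, was highest in endothelium and fibroblasts. Endothelium-like cells held 162 CPM [129, 201] in sham, 205 [171, 244] at day 2, 237 [216, 261] at day 7 and 250 [226, 276] after reversal. Fibroblast-like cells held 190 and 177 CPM at day 7 and after reversal. Macrophage-like cells held 94.9, 50.3, 88.8 and 104 CPM and T cell-like cells 42.3, 57.8 and 65.3 from day 2 on. None of these was called in the 4 comparisons. At day 7 and after reversal endothelium-like cells had the same number of Tgfbr2 as of Tgfb1 UMIs, 440 and 390, although the 2 genes were found in different shares of the cells.

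In the tubule the receptor genes were higher during obstruction than in sham in some segments. Loop of Henle-like cells, of the salt-reabsorbing limb, had 19.9 CPM of Tgfbr1 in sham, 64.4 at day 2, 57.9 at day 7 and 55.6 after reversal. Their Tgfbr2 was 3.06 CPM in sham (2 UMIs) and then 23.7, 28.5 and 23.7. Day 2 was higher than sham by 1.65 [0.85, 2.54] for Tgfbr1 and by 2.61 [0.96, 4.22] for Tgfbr2, and reversal was higher than sham by 1.44 [0.60, 2.36] and 2.61 [0.91, 4.25].

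These loop values compare different clusters. In sham 58.0% of the loop of Henle-like cells lay in a cluster led by Egf and Slc12a1 and 34.5% in one led by the distal genes Slc12a3 and Pvalb, whereas at day 2 67.7% and at day 7 95.1% lay in the cluster led by Il1f6, Umod and Lcn2. The Egf-led cluster had cells in sham and after reversal, 102 and 68, and within it Tgfbr1 was 25.1 and 24.5 CPM (12 and 10 UMIs). Tgfbr2 in it was 4.19 and 22.0 CPM, from 2 and 9 UMIs. In the Il1f6-led cluster Tgfbr1 was 79.8 CPM at day 2, 101 at day 7 and 93.0 after reversal. Mitochondrial UMIs were 33.7% of the class in sham, 20.9% at day 2, 9.92% at day 7 and 19.4% after reversal, and their part was not tested.

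Principal cell-like cells had 74.8 CPM of Tgfbr2 in sham, 117 at day 2, 78.4 at day 7 and 32.3 after reversal. Reversal was lower than day 7 by -1.25 [-2.43, -0.21] and lower than sham by -1.19 [-2.44, -0.04], from 9 UMIs in 38 cells. With classes taken from clusters these came to -0.70 and -0.34, and the second was also lost with no doublets removed. Tgfbr1 in the same cells was lower after reversal than at day 7 by -1.05 [-1.74, -0.41], a call lost under 6 of 13 alternatives. Intercalated cell-like cells had 6.08, 24.8, 27.9 and 21.6 CPM of Tgfbr2, with day 2 over sham at 1.86 [0.06, 3.95] from 34 and 2 UMIs, a call lost when scaled to UMIs that are not mitochondrial. Proximal tubule-like cells had 13.8, 21.8, 54.3 and 26.0 CPM of Tgfbr2, so day 7 was the highest there, higher than day 2 by 1.28 [0.81, 1.75] and followed by a reversal value lower by -1.04 [-1.43, -0.63]. With TMM scaling these ratios were 0.96 and -0.72, both short of 2-fold. In the Slc13a1-led cluster named above Tgfbr2 was 22.5, 66.0 and 31.1 CPM from day 2 to reversal. The share of mitochondrial UMIs in these cells was 34.1%, 24.1%, 18.8% and 28.9%, and the C1q genes given above were highest at day 7 too, whose part was not tested.

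Receptor chains work as a pair, so the share of cells with UMIs of both was counted. Without thinning it was 17.1%, 22.7%, 22.9% and 31.2% of macrophage-like cells from sham to reversal, 12.5%, 40.8%, 24.7% and 7.89% of principal cell-like cells, and 1.00%, 5.80%, 8.24% and 10.2% of endothelium-like cells. Median depths of principal cell-like cells were 5378.5, 9260, 5457 and 6812.5 UMIs in the same order. At 1000 UMIs per cell the macrophage shares were 5.71% (2 of 35 cells), 0% (0 of 321), 1.57% and 1.58%. Those of principal cell-like cells were then 0%, 1.41%, 2.60% and 0%, and those of endothelium-like cells 0%, 0%, 1.34% and 0.88%. No order is read from values this close to 0. Endothelium-like cells with Tgfbr2 thus seldom showed a Tgfbr1 UMI at these depths, which limits detection and not presence.

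**Figure D4:**
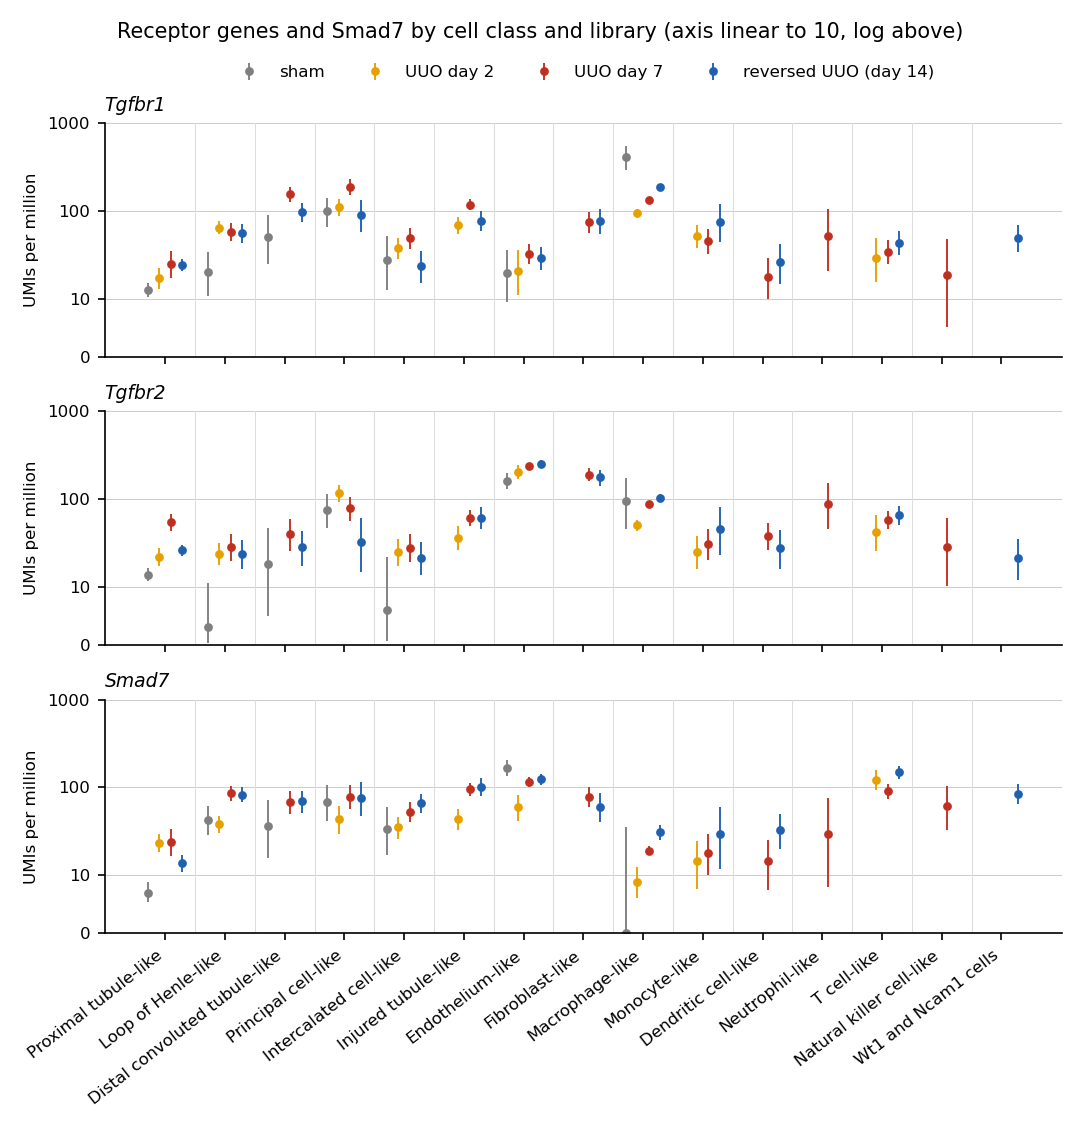
Levels of Tgfbr1, Tgfbr2 and Smad7 in CPM (vertical axis, linear up to 10 and logarithmic above) by class (horizontal axis), with 1 point per library (sham grey, UUO day 2 amber, UUO day 7 red, reversed UUO blue) and exact 95% Poisson intervals as bars. Macrophage-like cells have the highest Tgfbr1 level in sham, at 408, and endothelium-like cells the highest Tgfbr2 level in each library.

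Smad7, the inhibitory SMAD gene, was highest in endothelium in sham and in T cells at day 2. Endothelium-like cells held 168 CPM [134, 208] in sham, 58.8 [41.4, 81.1] at day 2, 115 [100, 131] at day 7 and 124 [107, 142] after reversal. Day 2 was lower than sham by -1.50 [-2.09, -0.93], and its interval overlapped none of the others. The Ehd3-led cluster had 203, 84.9, 176 and 145 CPM, the Plvap-led cluster 116, 48.5, 89.2 and 121, and the Cldn5-led cluster 105, 47.0, 72.9 and 72.0, so day 2 had the lowest value in each of them. In the Plvap-led and Cldn5-led clusters, however, the intervals of sham and day 2 overlapped. The summed immediate-early genes were 784, 1294, 1904 and 2832 CPM in these cells, and their part in the Smad7 values was not tested.

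T cell-like cells held 122, 90.4 and 149 CPM of Smad7 from day 2 to reversal. Injured tubule-like cells held 43.7, 94.4 and 102 CPM, with day 7 over day 2 at 1.09 [0.63, 1.57], and loop of Henle-like cells 42.8, 37.8, 85.5 and 82.5, with day 7 over day 2 at 1.16 [0.73, 1.59]. TMM scaling ended both calls. Macrophage-like cells were low, at 0 UMIs in sham and then 8.80, 18.9 and 30.8 CPM, and day 7 over day 2 was 1.02 [0.56, 1.51], a call lost under 6 of 14 alternatives. A floor of 3 UMIs in the 35 sham cells is 28.5 CPM, so no difference of day 2 or day 7 from sham was detectable. In proximal tubule-like cells Smad7 was 6.94, 23.3, 23.9 and 13.6 CPM, and day 2 was higher than sham by 1.62 [1.16, 2.06]. Among proximal tubule-like cells with at most 20% mitochondrial UMIs (221, 193, 105 and 224 cells) it was 18.2, 31.1, 32.0 and 30.1 CPM. There, and with a pseudocount of 10 CPM, day 2 was short of 2-fold over sham.

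Among classes of at least 30 cells, Ctgf was highest in fibroblasts at day 7 and after reversal. Fibroblast-like cells held 325 CPM [285, 369] at day 7 (236 UMIs) and 124 [95.4, 160] after reversal (62 UMIs), a log2 ratio of -1.38 [-1.80, -0.97]. At day 7 they held 59.0% of the library's Ctgf UMIs. After reversal the Wt1 and Ncam1 cells stood next at 74.7 CPM [55.9, 97.7], and held 21.9% of the Ctgf UMIs against 25.6% in fibroblast-like cells.

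Endothelium-like cells held 50.8, 39.8, 15.7 and 12.8 CPM of Ctgf. Day 7 was lower than day 2 by -1.29 [-2.07, -0.49] and reversal lower than sham by -1.91 [-2.77, -1.05]. The first call was lost under 3 of 14 alternatives, classes taken from clusters among them, with a weakest value of -0.76. The sham level leans on few cells: 10 of its 26 UMIs came from 1 cell, 3.50% of the class had any, and with a stricter gate the ratio of reversal to sham came to -0.52. Among groups of at least 30 cells, the highest sham Ctgf level, 132 CPM [97.9, 174], was in cells without a class. In the same library 3 podocyte-like cells held 21 UMIs, 15.1% of the library's total.

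Set side by side, the fibroblast-like cells of day 7 and of reversal differed in both directions among the members. Tgfb1 and, but for the pseudocount of 10 CPM, Tgfb2 were higher after reversal by at least 2-fold, Ltbp1 and Ctgf were lower, and Tgfb3, Tgfbr1, Tgfbr2 and Smad7, at 74.4 and 60.2, 74.4 and 76.3, 190 and 177, and 78.5 and 60.2 CPM, did not differ by 2-fold. Of all genes counted in these cells 9.34% were called, 3.90% higher and 5.43% lower.

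**Figure D5:**
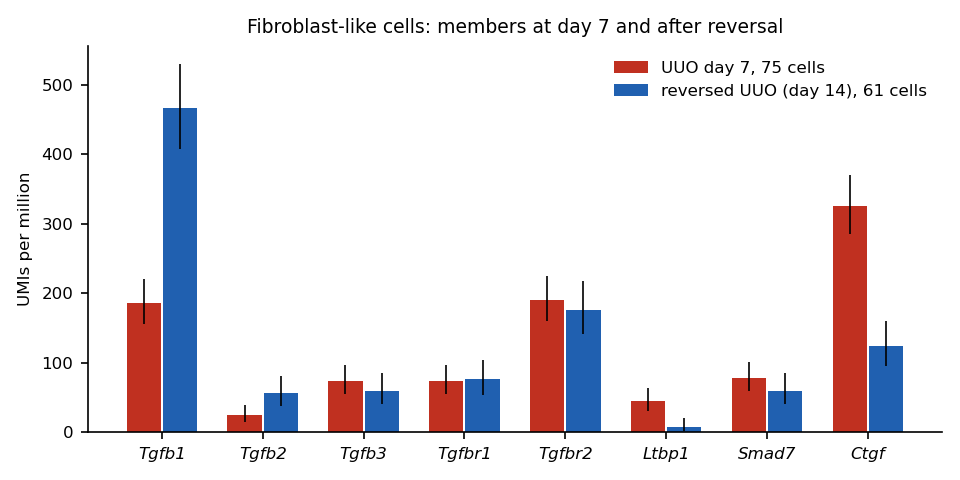
Levels of the 8 genes in CPM (vertical axis, from 0) in fibroblast-like cells at UUO day 7 (red, 75 cells) and after reversal (blue, 61 cells), with exact 95% Poisson intervals as bars. Tgfb1 is higher after reversal, at 466 against 186, and Ctgf lower, at 124 against 325.

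Counted over classes, a member was called where its level differed by at least 2-fold (on CPM plus 1), the interval of the ratio left out 0 and the 2 libraries had at least 30 UMIs of it together. At day 2 against sham 26 of 48 member and class pairs had enough UMIs, of which 7 were called higher and 3 lower, a median log2 ratio of 0.39, while 11.1% of all 41533 gene and class pairs were called, 7.40% higher and 3.69% lower. The median over all genes, taken class by class, ranged from -0.05 to 0.29 in this comparison, from 0.01 to 0.24 at day 7 against day 2, from -0.25 to 0.06 at reversal against day 7 and from -0.02 to 0.26 at reversal against sham. The pairs called higher were in the tubule (Tgfb1 and Smad7 in proximal tubule-like cells, Tgfb1, Tgfbr1 and Tgfbr2 in loop of Henle-like cells, Tgfb1 and Tgfbr2 in intercalated cell-like cells) and the lower ones outside it (Ltbp1 and Smad7 in endothelium-like cells and Tgfbr1 in macrophage-like cells). Tgfb1 in the loop was at 0 UMIs in sham, so its level at day 2 was at least 3.28-fold higher than the floor of 3 UMIs in sham, and in intercalated cell-like cells its ratio was 1.42 [0.04, 3.09]. The first call was lost under the stricter gate, and no difference was detectable with free RNA subtracted, as given above. The second was lost under 4 of 13 alternatives.

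At day 7 against day 2, 43 of 72 pairs had enough UMIs, 7 were called higher and 2 lower with a median of 0.49, and 9.14% of 68995 pairs of all genes were called, 6.91% higher and 2.23% lower. Tgfb1 in proximal tubule-like cells, at 1.28 [0.61, 1.95], completes the higher ones named above, and it was lost under 4 of 14 alternatives, TMM scaling among them. At reversal against day 7, 58 of 96 pairs had enough UMIs, 5 were called higher and 8 lower with a median of -0.04, and 5.77% of 84315 pairs were called, 2.26% higher and 3.51% lower. Besides those given, Tgfb1 was lower in intercalated cell-like cells (-1.34 [-2.13, -0.59]) and proximal tubule-like cells (-1.02 [-1.57, -0.45]), Tgfbr1 lower in intercalated cell-like cells (-1.02 [-1.75, -0.32]) and Smad7 higher in dendritic cell-like cells (1.13 [0.08, 2.21]). Of these, the proximal tubule call of Tgfb1 was lost under 6 of 14 alternatives, TMM scaling among them, that of Tgfbr1 under 5 of 14 and that of Smad7 under 2 of 13.

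At reversal against sham, 26 of 56 pairs had enough UMIs, 3 were called higher and 4 lower with a median of 0.34, and 9.02% of 44628 pairs were called, 7.18% higher and 1.84% lower. Tgfb1 in proximal tubule-like cells, at 1.81 [1.29, 2.32], is the one not described above, and it was lost with free RNA subtracted, which left 0 CPM after reversal, with a pseudocount of 10 CPM and at most 20% mitochondrial UMIs. The 4 comparisons share libraries, so their counts are not independent. Of the 39 calls, 30 were kept with TMM scaling and 21 with a pseudocount of 10 CPM.

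Other genes of the pathway, 28 in all, were read in the same way. At day 2 against sham, 20 of 92 pairs were higher and 2 lower, at day 7 against day 2, 12 of 161 were higher and 11 lower, at reversal against day 7, 7 of 198 were higher and 11 lower, and at reversal against sham, 20 of 100 were higher and 3 lower. The median log2 ratios were 0.36, 0.18, -0.03 and 0.40 in that order, and the shares of all genes called are those given above. Among known targets of the pathway (Tgfbi, Fn1 and Cyr61) 8 of 10 pairs were higher and 0 lower at day 2 than in sham, with a median log2 ratio of 2.83. In the other comparisons 2 of 21 were higher and 4 lower at day 7 against day 2, 1 of 23 higher and 5 lower at reversal against day 7, and 5 of 8 higher and 0 lower at reversal against sham. The cluster led by Ccl8, Ms4a7 and C1qc held 88.6% of the sham macrophage-like cells and the Saa3 and Ccl24 cluster 78.2% of those at day 2, and Tgfbi is itself among the leading genes of the latter. Tgfbi, a secreted matrix protein gene, was 256 CPM in sham macrophage-like cells, 1240 at day 2 and 387 at day 7, ratios of 2.27 [1.73, 2.87] and -1.68 [-1.73, -1.62]. Fn1, fibronectin, was 19, 404, 122 and 145 CPM in the same cells, and its day 2 ratio was 4.34 [2.54, 6.94] from 2 UMIs in sham. Cyr61, a relative of Ctgf, was 9.02, 104, 217 and 26.8 CPM in proximal tubule-like cells. The summed immediate-early genes were 71.8, 263, 768 and 314 CPM in the same cells, highest at day 7 like Cyr61, Tgfb1 and Tgfbr2 there. They were 112, 285, 629 and 1148 CPM in loop of Henle-like and 350, 712, 770 and 1468 CPM in intercalated cell-like cells, and their part in the tubule values was not tested.

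Genes that hold or release latent TGF-beta were called higher in 7 of 29 pairs at day 2 against sham and lower in 0, beside 7.40% and 3.69% of all genes. They were higher in 3 and lower in 5 of 52 at day 7 against day 2, higher in 3 and lower in 4 of 70 at reversal against day 7, and higher in 5 and lower in 2 of 38 at reversal against sham. Among integrin chains of the intercalated cells, Itgav was 155 CPM in sham and 522 at day 2, a ratio of 1.75 [1.34, 2.18], and Itgb6, its partner in the epithelial integrin that activates latent TGF-beta, was 33.4 and 172, a ratio of 2.33 [1.48, 3.31], with 68.6 CPM after reversal. Itgb8, another partner of Itgav, was 32.1 CPM in sham loop of Henle-like cells, 90.6 at day 2 and 84.2 after reversal. Thbs1, thrombospondin, which also activates the latent form, had 0 UMIs in the 35 sham macrophage-like cells and 84.5 CPM at day 2, at least 2.97-fold higher than the floor of 3 UMIs, and was 21.1 CPM at day 7. In fibroblast-like cells Thbs1 was 322 CPM at day 7 and 741 after reversal, and Furin, the protease that cleaves the TGF-beta precursor, 71.6 and 165, while the microfibril gene Fbn1 was 463 and 209.

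The genes grouped as co-receptors were Tgfbr3, Eng and Acvrl1, although Acvrl1 encodes a receptor kinase. Genes of this group were called higher in 0 and lower in 1 of 8 pairs at day 2 against sham. In the later comparisons, in the order above, they were higher in 1 and lower in 0 of 11, 0 and 1 of 17, and 1 and 0 of 9. The group of signal carriers was counted as Smad2, Smad3, Smad4 and the inhibitory Smad6. Its counts were 2 and 1 of 16, 1 and 0 of 28, 0 and 0 of 29, and 2 and 1 of 14. Each lower call in that group was Smad6 in endothelium-like cells. For inhibitors, counted without Smad6, they were 3 and 0 of 29, 5 and 2 of 49, 3 and 1 of 59, and 7 and 0 of 31. The shares of all genes are those given above. Among co-receptors, carriers and inhibitors, Smad6, the other inhibitory SMAD, was 350 CPM in sham endothelium-like cells, 116 at day 2 and 110 after reversal, ratios of -1.58 [-1.99, -1.19] and -1.67 [-1.98, -1.36]. Smad3 in loop of Henle-like cells was 4.58 CPM in sham, from 3 UMIs, and 19.9 at day 2. The pseudoreceptor gene Bambi was 22.0 CPM in fibroblast-like cells at day 7 and 86.3 after reversal, a ratio of 1.92 [1.09, 2.81], and the co-receptor gene Tgfbr3 55.1 and 16.1, a ratio of -1.72 [-2.92, -0.65]. Pmepa1, which limits SMAD signalling, was higher in injured tubule-like cells at day 7 than at day 2 (1.02 [0.68, 1.37]) and in endothelium-like cells after reversal than in sham (1.40 [0.59, 2.31]). The injured tubule ratio falls short of 2-fold with TMM scaling, which moved the log2 ratios of that class and comparison by -0.16. Skil, encoding a SMAD corepressor, was higher in intercalated cell-like cells after reversal than in sham, by 2.16 [0.61, 4.03] from 45 and 3 UMIs.

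Likeness of pattern was measured as Pearson's r of log2(CPM + 10) over 38 sums of a class in a library, among 7363 genes, and is a description, since these sums share libraries and depth. Tgfb1 was most like Fxyd5 (0.96), Emp3 (0.96) and Crlf2 (0.94), and Tgfb2 most like Tead2 (0.84), Nradd (0.83) and Adamts5 (0.82). For Tgfb3 the highest values were those of Mmp2 (0.96), Cercam (0.96) and Dclk1 (0.95), for Ctgf those of Fstl1, Efemp2 and Bmp1 (0.91 each) and for Ltbp1 that of Csf1 (0.91). The receptor genes had lower values: Tgfbr2 was most like Iigp1 (0.83), and Tgfbr1 most like Igsf8, at 0.71. Smad7 was most like Bptf, at 0.88. Ranks gave another order: Spearman's rho was 0.62, 0.61 and 0.51 for the 3 genes named for Tgfb3, for which Trim35 came first (0.75), and 0.62 for Csf1 with Ltbp1, for which Sspn came first (0.83). Of the genes named here as most like a member, Bptf alone was also first by rho. Among the members themselves r was 0.75 for Tgfb3 and Ctgf, 0.71 for Tgfb2 and Ltbp1, 0.56 for Tgfb1 and Tgfbr2, 0.25 for the receptor pair and -0.01 for Tgfb1 and Tgfbr1.

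The Smart-seq2 sample gave a second reading in phagocytes. Of 768 wells 542 were kept, with a median of 258908.5 reads and 3481.5 genes, 98.3% of them had reads on the EGFP entry of the table, and 451 were macrophage-like. Of those 451, 400 had reads of Tgfbr1 and 388 of Tgfbr2, and 88 had reads of Tgfb1, 31 of Tgfb3, 18 of Smad7, 14 of Ltbp1, 12 of Ctgf and 0 of Tgfb2. By the limit of 3 counts, 0 of 451 allows up to 0.665% of wells with reads of Tgfb2, which limits detection and not expression. In reads per 1000000 reads of the class, Tgfbr1 was at 359, Tgfbr2 at 340, Tgfb1 at 9.87 and Smad7 at 2.15. The wells of macrophages thus held both receptor genes widely, and Tgfb1 was found in 19.5% of them. Macrophage-like cells of the droplet libraries held 94.6 to 408 CPM of Tgfbr1, 50.3 to 104 of Tgfbr2 and 208 to 290 of Tgfb1. The reads of the wells carry no UMIs, come from whole transcripts and mix all time points, so the 2 scales are set side by side and not compared. The 17 monocyte-like wells had 23.7 reads of Tgfb1 per 1000000, 86.7% of them from 1 well.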

How the data were processed

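The authors deposited, for 4 droplet libraries (10x 3′ V2 chemistry) and 1 Smart-seq2 sample, raw counts: UMI counts per gene and cell, and read counts per gene and well. Per the labels' protocols, tissue was digested on ice and a DAPI sort removed dead cells. Cell Ranger, STAR, GRCm38 and mm10 are named in the submitters' processing notes, and versions are not given in the sources used here. For the Smart-seq2 sample the labels give the text of the droplet preparation.

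The filter on cells asked for 200 genes or more and allowed 50% of UMIs to be mitochondrial. Scrublet's automatic threshold marked few cells and was not used. Instead the top-scoring 0.8% of cells per 1000 deposited were removed. A cell's class was the one with the highest mean scaled marker level (score of at least 0.2, lead of at least 0.1 over classes of another kind, at least 2 markers). Clusters (31, Leiden) came from scanpy 1.11.5 with 2000 variable genes and 30 components. Every kept cell had at least 1000 UMIs, the depth used for thinning. Levels are UMIs per 1000000 UMIs of a class's cells, with exact Poisson intervals from scipy 1.17.1. Ratios used a pseudocount of 1 CPM. A call needed a 2-fold ratio, a 95% interval that excludes 0, 30 summed UMIs and 30 cells in each library. Cells are not replicates, so no p-value or standard error was made from them. Wells with at least 500 genes and 10000 reads were kept.

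The members, the 28 other pathway genes (1 more gene of that list is not reported here), the markers and the named genes (the 8 members, pathway genes past 2-fold with 30 summed UMIs, and the 3 genes most like each member) were chosen with earlier results of these data known. Alternatives covered edgeR 4.0.16 (TMM) and DESeq2 1.42.0 scaling, the pseudocount, the fold and UMI limits, the mitochondrial limit, doublets, Leiden classes, free RNA, cell weights and the gate. With free RNA subtracted, equal cell weights or the top cell left out, no interval was made. A call there needed only the fold and the UMI limit. The free RNA profile was the sum of each library's kept cells, and its share was held to at most 50%. The step that calls ratios was tested on simulated data. RefSeq proteins were not used here.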

Additional observations from a re-analysis of the deposited data

Results flagged for a closer look

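In 6 cases the same gene was called higher in one class and lower in another within 1 comparison. There is 1 library per time point, so in each case the difference was not tested. Smad7 at day 2 against sham had a log2 ratio of 1.62 in proximal tubule-like cells and -1.50 in endothelium-like cells. Tgfbr1 in the same comparison was at 1.65 in loop of Henle-like cells and -2.10 in macrophage-like cells. Tgfb2 at day 7 against day 2 was at 3.75 in injured tubule-like cells and -1.44 in endothelium-like cells.

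At reversal against day 7, Tgfb1 was at -1.02 in proximal tubule-like and -1.34 in intercalated cell-like cells, and at 1.32 in fibroblast-like cells, and the first of these calls was lost under 6 of 14 alternatives, TMM and DESeq2 scaling among them. For reversal against sham, Tgfbr1 was at 1.44 in loop of Henle-like cells and -1.11 in macrophage-like cells, and Tgfbr2 at 2.61 in loop of Henle-like cells and -1.19 in principal cell-like cells, the last of which was lost with classes taken from clusters and with no doublets removed. The loop values compare libraries whose cells lay in different clusters, and the C1q genes, like Tgfb1, were lower after reversal than at day 7 in proximal tubule-like and intercalated cell-like cells. The part of these in the values was not tested. Of the other calls named, Smad7 in proximal tubule-like cells was lost with a pseudocount of 10 CPM and at most 20% mitochondrial UMIs, Tgfbr1 in macrophage-like cells at reversal under TMM and DESeq2 scaling, and Tgfbr2 in loop of Henle-like cells and Tgfb2 in endothelium-like cells under the stricter gate.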

How the results depend on the processing

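The lower UMI limits and the 1.5-fold limit only loosened the rule, so each kept 39 of 39 calls by construction. They are among the alternatives counted here and above. Of 39 calls, 11 were kept under every alternative that could be run. These were Tgfbr1 and Tgfbr2 in loop of Henle-like, Ltbp1 and Smad7 in endothelium-like and Tgfbr1 in macrophage-like cells at day 2 against sham, Tgfb2 in injured tubule-like cells at day 7, Tgfb1 in intercalated cell-like and Tgfb1, Ltbp1 and Ctgf in fibroblast-like cells at reversal against day 7, and Tgfbr1 in loop of Henle-like cells at reversal against sham. In endothelium-like cells the estimated share of free RNA stood at its limit of 50% in sham, against 23.3% at day 2. Subtraction thereby raised the sham levels of Ltbp1 and Smad7 to 174 and 314 CPM and widened their ratios. That alternative was therefore no check on these 2 calls. The 10 calls of day 2 against sham became 3 among cells with at most 20% mitochondrial UMIs, where 13 pairs instead of 26 could be counted. Loop of Henle-like and intercalated cell-like cells then numbered 22 and 9 in sham, so their 5 calls could not be run, and 2 calls (Tgfb1 and Smad7 in proximal tubule-like cells) were short of 2-fold. The 9 of day 7 against day 2 became 4 with TMM, 4 with DESeq2 size factors, 3 with a pseudocount of 10 CPM and 15 at 1.5-fold. The 13 of reversal against day 7 became 5 with that pseudocount and 22 at 1.5-fold, and the 7 of reversal against sham became 11 with each cell weighing the same, 15 at 1.5-fold and 11 without the single cell with most UMIs of a member. The counts with equal cell weights and without the top cell used no interval rule, so they are not like for like with the 7. Tgfb1 in proximal tubule-like cells came to -0.094 at day 2 against sham with at most 20% mitochondrial UMIs. With free RNA subtracted it came to -0.78 both at day 2 and at reversal against sham, values set by the pseudocount, since 0 CPM was left in both libraries against 0.718 in sham, and no direction is read from them. TMM moved the median of all genes by at most 0.32 (log2), in proximal tubule-like cells, and 30 of the 39 calls were kept under it. The stricter gate kept 28 of 38, and the pseudocount of 10 CPM 21 of 39. The cause of these differences was not tested. Denominators without mitochondrial UMIs, the stricter gate and leaving out the top cell were chosen after seeing the data. No paired analysis was possible because each group has 1 library. Depth limits members under 30 UMIs, classes under 30 cells (sham fibroblasts, injured tubule and lymphocytes) and the 35 sham macrophage-like cells.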

Other observations

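Vessel wall cells and podocytes were too few for levels and are given as UMIs. Mural-like cells numbered 12 in sham, 12 at day 2 and 23 after reversal, and held 9, 25 and 35 UMIs of Ltbp1, 7, 5 and 8 of Tgfb3 and 17, 10 and 21 of Ctgf. Podocyte-like cells, 8 at day 2 and 7 at day 7, held 18 and 22 UMIs of Tgfbr2.

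In the macrophage-like Smart-seq2 wells, 4 other genes of the pathway were found in more wells than Tgfb1, the most widely found ligand gene with 88 wells, and Thbs1 in fewer. Tgfbi had reads in 439 of 451 wells, Nrros, which holds latent TGF-beta on myeloid cells, in 411, Skil in 297, Acvrl1 in 205 and Thbs1 in 82. In reads per 1000000 reads of the class they stood at 1192, 519, 149, 90.0 and 12.5. These wells mix all time points, so no time course can be read from them.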
